A study of Mus musculus with 46 samples.

Results

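The metallothioneins Mt1, Mt2 and Mt3, the zinc-sensing transcription factor Mtf1 and the zinc transporters Slc30a1, Slc30a3 and Slc39a10 were followed through the heart and striatum of adult mice. These genes are 7 of the 57010 in each count table and were picked by symbol. They were chosen from earlier readouts of these same libraries, and which contrast chose them is not recorded, so their levels and calls below describe these data and are not independent evidence. Total RNA was counted in 22 heart and 24 striatum libraries. Mutant mice carried the HrDR5 allele on both chromosomes (HrDR5/DR5) and the others were wild type (WT). Hr, the hairless gene, encodes a nuclear corepressor that answers to thyroid hormone. In each genotype 1 group was fed low-iodine food with propylthiouracil (PTU), which blocks thyroid hormone synthesis, for 15 days and then given thyroid hormone (TH) for 24 hours, and is called PTU+TH. A second group had the PTU food alone and was hypothyroid, and the last was untreated. Each of the 12 groups of tissue, genotype and treatment held 4 libraries, apart from mutant PTU and mutant untreated hearts with 3. For heart mutant PTU+TH replicate 1 the label gives the days of PTU but not the hours of TH, and it was kept in its group. The sources used here do not give strain, sex or hormone dose.

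Metallothioneins are small, cysteine-rich proteins that hold zinc and copper in the cytosol. Mt1 and Mt2 are made in most tissues and are raised by metals, glucocorticoids and oxidative stress, while Mt3 belongs mainly to the brain. Mtf1 senses free zinc, binds metal response elements in promoters, and drives Mt1, Mt2 and Slc30a1. Most Slc30 proteins carry zinc out of the cytosol and Slc39 proteins carry it in. Slc30a1 is the exporter of the plasma membrane, Slc30a3 loads synaptic vesicles of glutamatergic neurons, and Slc39a10 is an importer of the plasma membrane that Mtf1 is known to hold down in mouse.

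Counts assigned to genes ran from 3269806 to 19531711 in heart libraries and from 9468774 to 13656893 in striatum libraries. Heart mutant untreated replicate 2 was the shallowest, with 31.3% of its reads in no gene, and the next heart library held 8235291 counts. Hr stood at 12.4 to 20.1 counts-per-million (CPM, with TMM-scaled library totals) in mutant PTU+TH hearts, against 69.4 to 80.6 CPM in WT PTU+TH hearts. These groups did not overlap. The genotypes overlapped in PTU hearts, at 1.37 to 3.37 CPM in mutant and 1.37 to 3.68 CPM in WT. They overlapped in untreated hearts too, at 3.13 to 18.8 and 15.4 to 16.3 CPM. In striatum they overlapped under every treatment, for PTU+TH at 6.71 to 34.3 CPM in mutant and 21.1 to 43.8 CPM in WT. The summed level of 8 cardiomyocyte markers was 39250 to 96700 CPM in heart and 71.5 to 183 CPM in striatum. The summed level of 10 markers of striatal projection neurons was 13.2 to 24.8 CPM in heart and 6511 to 10930 CPM in striatum. In such bulk RNA, fewer cells of a type and less RNA per cell cannot be told apart. No label says that the libraries of a group came from separate mice, so p-values measure only the spread between these libraries, which may be technical.

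Windows around 1 annotated start of each of the 3 metallothioneins are shown because Mtf1 acts through metal response elements. RefSeq promoter windows (build GRCm38.p6), which run from 250 bases before to 50 after the annotated start, were found for 7 of 7 members. The windows of Mt1 (chr8:94178839-94179138), Mt2 (chr8:94172368-94172667) and Mt3 (chr8:94152357-94152656) all lie on the plus strand of chromosome 8. Each is written 5′ to 3′, with capitals on every match to the core of the metal response element, TGCACNC or TGCGCNC, on either strand.
Mt2: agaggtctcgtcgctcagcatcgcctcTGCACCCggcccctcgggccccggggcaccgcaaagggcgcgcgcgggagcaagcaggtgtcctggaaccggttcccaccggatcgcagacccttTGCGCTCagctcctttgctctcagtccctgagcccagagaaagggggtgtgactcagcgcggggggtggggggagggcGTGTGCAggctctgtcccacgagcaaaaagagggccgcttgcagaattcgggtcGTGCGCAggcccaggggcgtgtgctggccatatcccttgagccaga
Mt1: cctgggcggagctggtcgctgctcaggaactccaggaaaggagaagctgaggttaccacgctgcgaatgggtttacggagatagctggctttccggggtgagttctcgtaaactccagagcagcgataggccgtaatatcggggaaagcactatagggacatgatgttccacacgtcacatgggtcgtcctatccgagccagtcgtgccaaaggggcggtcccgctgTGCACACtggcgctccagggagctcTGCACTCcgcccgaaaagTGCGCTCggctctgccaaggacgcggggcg
Mt3: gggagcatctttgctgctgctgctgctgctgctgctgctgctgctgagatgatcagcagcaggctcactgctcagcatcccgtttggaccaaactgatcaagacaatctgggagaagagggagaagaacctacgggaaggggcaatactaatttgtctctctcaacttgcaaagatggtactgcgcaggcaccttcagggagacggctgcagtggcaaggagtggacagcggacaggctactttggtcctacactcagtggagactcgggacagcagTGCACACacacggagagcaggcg
The core occurred 4 times in the window of Mt2, 3 times in that of Mt1 and once in that of Mt3. The window of Slc30a1 (chr1:191906531-191906830, plus strand) held it 2 times. Slc30a3 had a pair of annotated starts, with 1 match in the window of the first and 0 in the other. Mtf1 and both windows of Slc39a10 held 0. Among 32851 windows in the RefSeq table, 25.7% held at least 1 core, 7.11% at least 2, 1.97% at least 3 and 0.517% at least 4. AGGTCA, the core of nuclear receptor binding sites, searched on both strands, was in 0 of the members' windows and in 16.3% of all windows. A match says only that these letters stand in this window, and the matches do not overlap one another. Elements outside these windows, or near any other start of a gene, were not searched.

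In untreated WT mice 6 of the 7 members stood lower in heart than in striatum, and Mt1 was the most abundant of them by merged exon length in both tissues. On a scale set jointly over all 46 libraries, with CPM divided by the kilobases of merged exons, Mt1 had 179 ± 65.3 in heart and 194 ± 21.8 in striatum (SD, n = 4 each). Mt2 had 22.2 ± 9.85 in heart and 143 ± 24.4 in striatum. Mt3, the brain metallothionein, had 0.856 ± 0.503 in heart and 136 ± 14.4 in striatum. In striatum the 3 metallothioneins therefore stood within a narrow band, in which Mt2 and Mt3 did not differ beyond their spread, while in heart Mt1 stood far above Mt2 and Mt2 far above Mt3. Slc39a10 had 1.80 ± 0.726 CPM per kilobase in heart and 19.9 ± 3.25 in striatum. Slc30a1 had 4.42 ± 0.374 in heart and 7.25 ± 0.806 in striatum. Mtf1 had 2.89 ± 0.449 in heart and 4.27 ± 0.417 in striatum. Below Mt1 and Mt2 the order in heart was Slc30a1, Mtf1, Slc39a10 and Mt3, in which neither Mtf1 and Slc39a10 nor Slc39a10 and Mt3 differed by more than their SDs added together. Below the metallothioneins the order in striatum was Slc39a10, Slc30a1, Mtf1 and Slc30a3, with gaps larger than that. With the longest transcript as length, Mt3 rose to the top of the striatal order at 270 CPM per kilobase, with Mt1 at 223 and Mt2 at 164, so the order among the 3 depends on the length used.

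**Figure D1:**
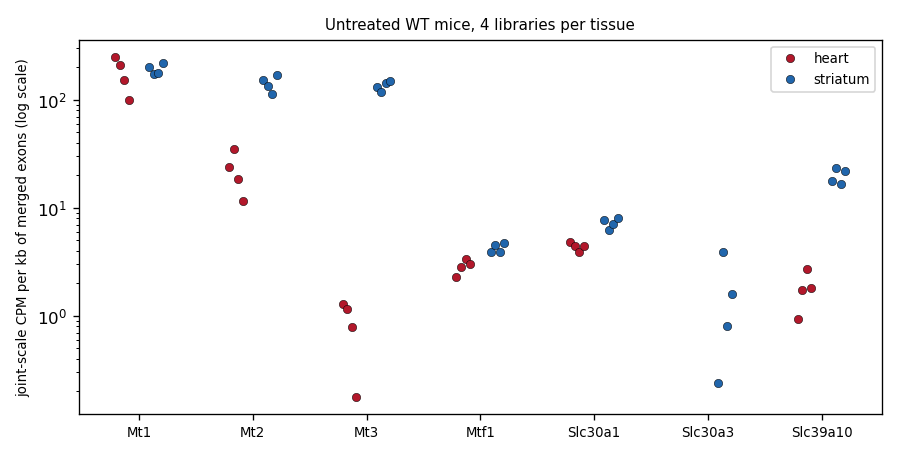
Level of the 7 members in untreated WT mice as joint-scale CPM per kilobase of merged exons (y axis, log scale), with 1 point per library, heart left of striatum for each gene. Heart points of Slc30a3 are missing because all 4 libraries had a count of 0. Mt1 overlaps between the tissues and the other members do not, in a comparison that called 79.9% of 17346 genes. The share of all genes without overlap was not counted.

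By edgeR's quasi-likelihood test over both tissues, 6 of 7 members were called and all 6 were lower in heart, in a comparison that called 79.9% of 17346 genes (42.4% of the 17346 as lower), with a median over all genes of -0.16. The log2 change of heart against striatum was -7.38 ± 0.384 for Mt3 (adjusted p = 2.44e-21), -3.45 ± 0.242 for Slc39a10 (adjusted p = 7.67e-17) and -2.70 ± 0.279 for Mt2 (adjusted p = 9.87e-12). It was -0.71 ± 0.161 for Slc30a1 (adjusted p = 0.00011) and -0.56 ± 0.145 for Mtf1 (adjusted p = 0.000591). Slc30a3 had 0 counts in 4 untreated WT hearts and 277 counts in 4 untreated WT striata, which makes it at least 61.0-fold lower in heart against a limit of 3 counts over the group. Mt1 was the member not called, at -0.12 ± 0.229 (adjusted p = 0.631, 95% interval -0.58 to 0.34). Library names carry 1 code in all hearts and another in all striata, with no stated meaning, so tissue and any batch behind that code cannot be told apart.

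In WT hearts Mt2 was the 1 member called between treatments by edgeR's quasi-likelihood test. Mt2 had 8.89, 9.46, 14.3 and 12.2 CPM in mutant PTU+TH hearts, 13.8, 13.0 and 10.3 CPM in mutant PTU hearts, and 16.0, 19.9 and 10.7 CPM in untreated mutant hearts. It had 11.8, 8.70, 12.4 and 10.7 CPM in WT PTU+TH hearts, 36.5, 19.4, 33.3 and 28.2 CPM in WT PTU hearts, and 10.5, 15.3, 8.08 and 5.02 CPM in untreated WT hearts. The 4 WT PTU hearts stood above every library of the WT PTU+TH, untreated WT, mutant PTU and mutant PTU+TH groups, and overlapped untreated mutant hearts through replicate 2 of these. The other 5 groups overlapped each other. The counts behind these levels ran from 51 to 794 reads per library. In WT hearts Mt2 rose by a log2 change of 1.61 ± 0.265 with PTU against untreated (3.05-fold, edgeR's quasi-likelihood test, adjusted p = 0.000505), 1 of 6 members tested where 4.9% of all genes were called. It fell by 1.43 ± 0.262 with PTU+TH against PTU in WT hearts (adjusted p = 0.000585), again 1 of 6 members where 11.4% of genes were called. These 2 comparisons share the WT PTU libraries. WT PTU+TH against untreated hearts differed by 0.18 ± 0.266 (adjusted p = 0.804, 95% interval -0.37 to 0.73), with 0 of 6 members called by edgeR or DESeq2, 0 at an unadjusted p below 0.05, and 2.03% of genes called.

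**Figure D2:**
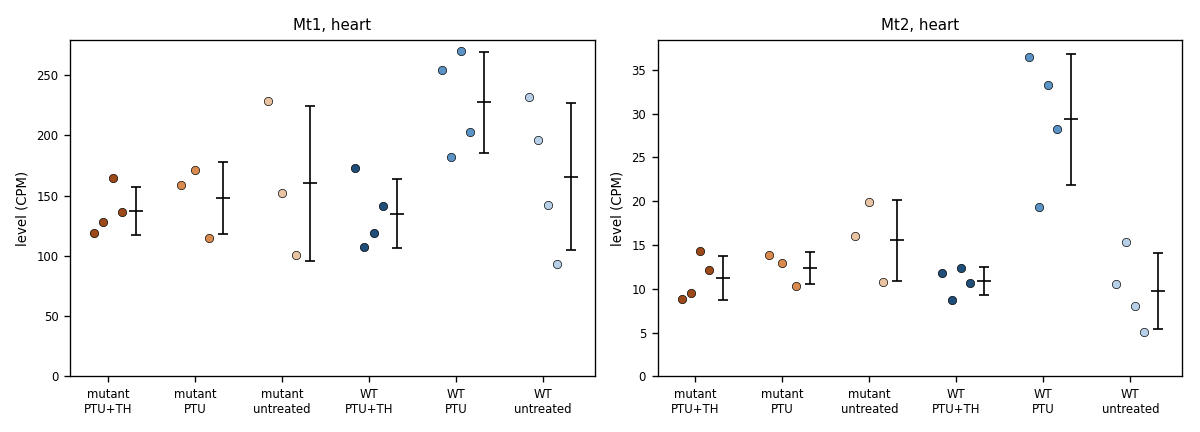
Level of Mt1 (left panel) and Mt2 (right panel) in every heart library, in CPM (y axis), by genotype and treatment (x axis), with the mean and SD as a bar beside the points. For Mt2 the 4 WT PTU libraries, at 19.4 to 36.5 CPM, lie above the libraries of WT PTU+TH, untreated WT and mutant PTU hearts; for Mt1 the ranges of most groups overlap.

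In mutant hearts no such rise was detected. The PTU groups of the 2 genotypes also differed in Myh6, a cardiomyocyte marker known to follow thyroid hormone. It had 4875 to 13710 CPM in mutant PTU hearts and 21.2 to 489 CPM in WT PTU hearts. Untreated mutant hearts had 16090 to 46670 CPM of Myh6. Whether both PTU groups were equally hypothyroid, and what part this had in the Mt2 difference, was not tested. Mt2 averaged 12.4 ± 1.83 CPM in mutant PTU hearts (SD, n = 3), against 29.3 ± 7.48 CPM in WT PTU hearts (SD, n = 4), and was lower in the mutant by a log2 change of -1.25 ± 0.289 (edgeR's quasi-likelihood test, adjusted p = 0.0227), 1 of 6 members where 2.2% of genes were called. The PTU response of Mt2 differed between genotypes by -1.90 ± 0.411 (adjusted p = 0.0323), 1 of 6 members where 0.579% of genes were called. Within mutant hearts the change was -0.29 ± 0.315 with PTU against untreated (adjusted p = 0.557) and -0.14 ± 0.287 with PTU+TH against PTU (adjusted p = 1). The genotype difference in the TH response was 1.29 ± 0.389, which was not called (adjusted p = 0.323). That comparison called 0 of 6 members by edgeR or DESeq2, 1 had an unadjusted p below 0.05, and 0.29% of genes were called. Untreated mutant hearts averaged 15.6 ± 4.63 CPM (n = 3) and untreated WT hearts 9.73 ± 4.34 CPM (n = 4), a difference of 0.65 ± 0.295 that was not called (adjusted p = 0.839). In that comparison 0 of 6 members and 0% of genes were called, and 2 members had an unadjusted p below 0.05. After PTU+TH the genotypes stood at 11.2 ± 2.51 and 10.9 ± 1.63 CPM in mutant and WT hearts (SD, n = 4 each), a difference of 0.04 ± 0.264 (adjusted p = 0.961), in a comparison that called 0.0141% of genes. There 0 of 6 members were called by edgeR or DESeq2, and 1 had an unadjusted p below 0.05.

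Both genotype calls of Mt2 depended on single libraries. The difference between PTU groups was not called without WT PTU replicate 3 (adjusted p = 0.0642) or without mutant PTU replicate 1 (0.0971), 2 (0.0863) or 3 (0.104), and its size ran from -1.40 to -1.12 over the 7 libraries left out in turn. The difference in PTU response was lost without any of the 3 mutant PTU libraries (adjusted p = 0.0754 to 0.0865), without mutant untreated replicate 2 (0.0993) or 3 (0.0511), and without WT PTU replicate 3 (0.069) or WT untreated replicate 3 (0.0705). Its size stayed between -2.18 and -1.68 over the 14 libraries left out in turn. The rise and fall in WT hearts kept their calls without each of the 8 libraries, at 1.39 to 1.91 and at -1.58 to -1.31.

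Mt1, the more abundant of the pair, was not called in heart under the settings used for the other members. Mt1 had 119, 128, 165 and 137 CPM in mutant PTU+TH hearts, 159, 171 and 115 CPM in mutant PTU hearts, and 228, 153 and 100 CPM in untreated mutant hearts. It had 173, 108, 119 and 141 CPM in WT PTU+TH hearts, 255, 182, 270 and 203 CPM in WT PTU hearts, and 232, 196, 142 and 93.2 CPM in untreated WT hearts. The WT PTU hearts stood above the WT PTU+TH hearts and above the mutant PTU hearts without overlap, but overlapped the untreated WT hearts. The log2 change in WT hearts was 0.46 ± 0.254 with PTU against untreated (edgeR's quasi-likelihood test, adjusted p = 0.354) and -0.75 ± 0.255 with PTU+TH against PTU (adjusted p = 0.0586). The second was called without the filter on low counts (adjusted p = 0.00807), by DESeq2 (0.0353), with the replicate number as a block (0.0366), by a fit of only the compared groups (0.0379) and without WT PTU+TH replicate 1 (0.043). Between mutant and WT PTU hearts it was -0.62 ± 0.278 (adjusted p = 0.25).

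The proportion of the pair differed between these groups. The ratio of Mt1 to Mt2 counts was 11.1 to 13.2 in mutant PTU hearts and 7.65 to 14.3 in untreated mutant hearts. It was 6.98 to 9.41 in WT PTU hearts and 12.8 to 22.0 in untreated WT hearts, which did not overlap. Mutant PTU+TH hearts had ratios of 11.2 to 13.5 and WT PTU+TH hearts 9.56 to 14.7. In striatum the ratio lay between 2.23 and 3.45 in all 24 libraries.

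**Figure D3:**
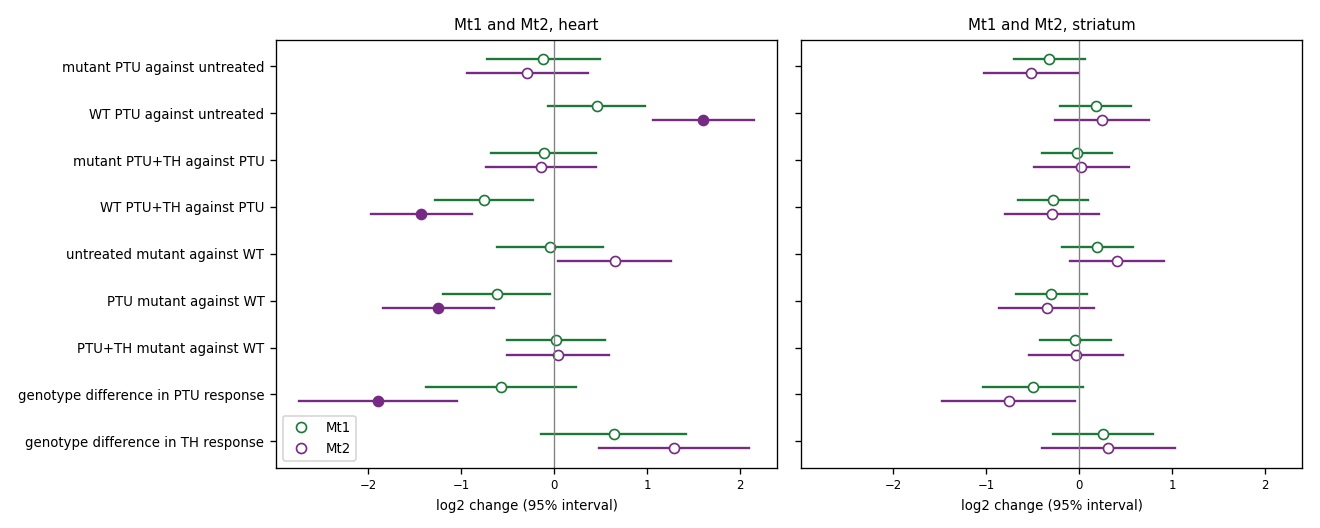
Log2 change of Mt1 (green) and Mt2 (purple) in 9 comparisons (rows) in heart (left panel) and striatum (right panel), with 95% intervals; filled points passed an adjusted p of 0.05 in the fit of all genes. In heart 4 of the Mt2 changes are filled and none of those of Mt1, and in striatum none is filled.

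Markers of other cell types were called with PTU in WT hearts, and their part in the change of Mt2 was not tested. The summed level of 6 blood cell markers was 494 to 1794 CPM in WT PTU+TH hearts, 211 to 898 CPM in WT PTU hearts and 1085 to 2760 CPM in untreated WT hearts. Of these markers 3 of 6 were called lower with PTU against untreated and 0 of 6 with PTU+TH against PTU. The summed level of 8 macrophage markers was 126 to 176 CPM in WT PTU+TH hearts, 130 to 207 CPM in WT PTU hearts and 191 to 280 CPM in untreated WT hearts. Of these, 2 of 8 were called lower with PTU against untreated and 1 of 8 higher with PTU+TH against PTU. These comparisons called 4.9% and 11.4% of all genes. The macrophage sums of PTU+TH and PTU hearts overlapped. Over 22 hearts the correlation of Mt2 was -0.0026 with the macrophage sum, -0.345 with the blood sum and -0.492 with the cardiomyocyte sum. Of those blood and macrophage markers only Slc4a1 was at 0 in any heart library, in 1 of 22. The 8 cardiomyocyte markers summed to 68660 to 82430 CPM in WT PTU+TH hearts, 39250 to 51920 CPM in WT PTU hearts and 64830 to 81730 CPM in untreated WT hearts, with Myh6 and Actc1 called lower with PTU. Myh6, which is also in the list of genes known to follow thyroid hormone, had 20650 to 27090 CPM in WT PTU+TH hearts, 21.2 to 489 CPM in WT PTU hearts and 13430 to 35810 CPM in untreated WT hearts. The other 7 summed to 46300 to 57990 CPM in WT PTU+TH hearts, 39180 to 51900 CPM in WT PTU hearts and 44620 to 65170 CPM in untreated WT hearts, which overlapped. The list of 10 cortical excitatory neuron markers moved inversely to Mt2 across hearts (r = -0.73 over 22 libraries). This was the correlation largest in size among the marker lists. In heart this sum was mostly Cux2 and Slc17a7, with medians of 14.2 and 8.11 CPM, so it does not measure cortical neurons there. It summed to 27.9 to 41.1 CPM in WT PTU+TH hearts, 5.75 to 12.2 CPM in WT PTU hearts and 16.1 to 32.6 CPM in untreated WT hearts, with Cux2 and Slc17a7 called lower with PTU. In mutant PTU hearts the list summed to 16.6 to 22.7 CPM, above the WT PTU hearts. There 1 of its 3 tested genes was called higher, in a comparison that called 2.2% of all genes. Neurod2 was at 0 in 22 of 22 hearts, and Tbr1, Neurod6, Emx1, Fezf2 and Lamp5 were at 0 in 17 to 21.

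In comparisons within heart, Mtf1, which drives the metallothionein genes, passed no test where Mt2 did. It had 22.6, 19.3, 19.2 and 21.0 CPM in mutant PTU+TH hearts, 17.5, 23.3 and 21.7 CPM in mutant PTU hearts, and 14.8, 12.9 and 13.4 CPM in untreated mutant hearts. It had 15.1, 19.1, 20.1 and 18.3 CPM in WT PTU+TH hearts, 11.0, 17.2, 23.2 and 19.5 CPM in WT PTU hearts, and 15.2, 19.0, 22.3 and 20.0 CPM in untreated WT hearts. Untreated mutant hearts had the lowest group mean, at 13.7 CPM, and overlapped neither the treated mutant groups nor untreated WT hearts. Their range lay inside that of WT PTU hearts, in which replicate 1 was the lowest heart library at 11.0 CPM. The WT groups overlapped. Mtf1 was higher in mutant PTU+TH than in untreated mutant hearts by 0.57 ± 0.204 (edgeR's quasi-likelihood test, adjusted p = 0.048), 1 of 6 members in a comparison that called 22% of genes, a share near the background. This call was lost when any of the 7 libraries was left out (adjusted p = 0.0557 to 0.148). The shallow mutant untreated replicate 2 gave 33 Mtf1 reads. Beside this change 5 of 8 macrophage markers were called lower, with summed levels of 129 to 201 CPM in mutant PTU+TH hearts and 219 to 388 CPM in untreated mutant hearts, none of them at 0, and their part was not tested. Untreated mutant against WT hearts differed by -0.47 ± 0.204 for Mtf1 (adjusted p = 0.839). Mutant PTU against untreated hearts differed by 0.59 ± 0.216 (adjusted p = 0.0672), in a comparison that called 13.8% of genes and 0 of 6 members by edgeR or DESeq2, with 2 at an unadjusted p below 0.05. In GENCODE M21, 1110065P20Rik on the opposite strand overlaps 721 exon bases of Mtf1, and no source used here gives the strand setting of the counting. It was called lower in mutant PTU+TH than in untreated mutant hearts, at -1.57 ± 0.490 (adjusted p = 0.0258), opposite in sign to Mtf1.

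The importer Slc39a10 and the exporter Slc30a1 passed no test in heart. Slc39a10 had 10.9, 15.2 and 16.3 CPM in mutant PTU hearts and 12.3, 4.69 and 4.47 CPM in untreated mutant hearts. It had 7.91, 14.3, 15.2 and 13.2 CPM in WT PTU hearts and 4.23, 7.90, 12.3 and 8.24 CPM in untreated WT hearts. The PTU+TH hearts lay at 10.5 to 16.0 CPM in mutant and 9.29 to 13.0 CPM in WT mice. In both genotypes most PTU hearts stood above the untreated ones but the ranges overlapped. The log2 change with PTU was 0.91 ± 0.354 in mutant hearts (edgeR's quasi-likelihood test, adjusted p = 0.0817) and 0.62 ± 0.289 in WT hearts (adjusted p = 0.253), neither of them called. Without mutant untreated replicate 1 the mutant change was 1.64 and was called (adjusted p = 0.00538). Slc30a1 ranged from 13.1 to 26.5 CPM over all 22 hearts. It averaged 24.4 ± 2.08 CPM in mutant PTU+TH hearts and 18.2 ± 1.34 CPM in WT PTU+TH hearts (SD, n = 4 each), and these groups did not overlap. The difference was 0.42 ± 0.148 (adjusted p = 0.26), and it was called only in a fit of those groups alone (adjusted p = 0.0377).

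Mt3 and Slc30a3 were near the limit of detection in heart. Mt3 had 2 to 43 reads per heart library, at 0.140 to 1.98 CPM, and its changes had standard errors of 0.54 or more on the log2 scale, so moderate changes were not detectable at this depth. Slc30a3 had 17 reads in 22 hearts and was at 0 in 13 of them. It was left out of the heart fits by the filter on low counts. For mutant hearts, PTU+TH against PTU called 0 of 6 members by edgeR or DESeq2, 0 at an unadjusted p below 0.05, and 0.41% of genes.

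In striatum no member passed the test in any of the 11 comparisons. Of 77 pairs of member and comparison, 0 were called by edgeR and 0 by DESeq2, and 3 had an unadjusted p below 0.05. The comparison of WT PTU+TH with PTU called 0.459% of genes, and the other 10 comparisons called 0%. Mt1 had 333, 240, 315 and 257 CPM in mutant PTU+TH striata, 190, 280, 334 and 360 CPM in mutant PTU striata, and 366, 291, 311 and 483 CPM in untreated mutant striata. It had 241, 331, 238 and 369 CPM in WT PTU+TH striata, 325, 422, 341 and 341 CPM in WT PTU striata, and 334, 286, 295 and 350 CPM in untreated WT striata. All of these groups overlapped.

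Mt2 in striatum followed Mt1 library by library. It had 115, 70.0, 115 and 116 CPM in mutant PTU+TH striata, 55.0, 94.1, 117 and 143 CPM in mutant PTU striata, and 149, 107, 114 and 213 CPM in untreated mutant striata. It had 75.8, 120, 90.9 and 138 CPM in WT PTU+TH striata, 112, 147, 136 and 126 CPM in WT PTU striata, and 119, 103, 89.1 and 127 CPM in untreated WT striata. The highest Mt1 and Mt2 levels came from the same untreated mutant library and the lowest from the same mutant PTU library. The log2 change of Mt2 with PTU was -0.51 ± 0.246 in mutant striatum (edgeR's quasi-likelihood test, adjusted p = 0.493) and 0.25 ± 0.245 in WT striatum (adjusted p = 0.857). The genotype difference in this response was -0.76 ± 0.347 (adjusted p = 1, 95% interval -1.48 to -0.04). The striatal value ran from -0.98 to -0.53 with each of 16 libraries left out in turn, and was never called. In heart the genotype difference was -1.90, and the tissues were not tested against each other.

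Mt3 in striatum ranged from 121 to 315 CPM over 24 libraries, and its group means from 170 ± 27.2 CPM in mutant PTU striata to 222 ± 64.6 CPM in untreated mutant striata (SD, n = 4 each). The untreated mutant replicate 4 held the highest Mt1, Mt2 and Mt3 level of the tissue. The largest Mt3 change was -0.39 ± 0.203 for mutant PTU against untreated striatum (edgeR's quasi-likelihood test, adjusted p = 0.5).

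**Figure D4:**
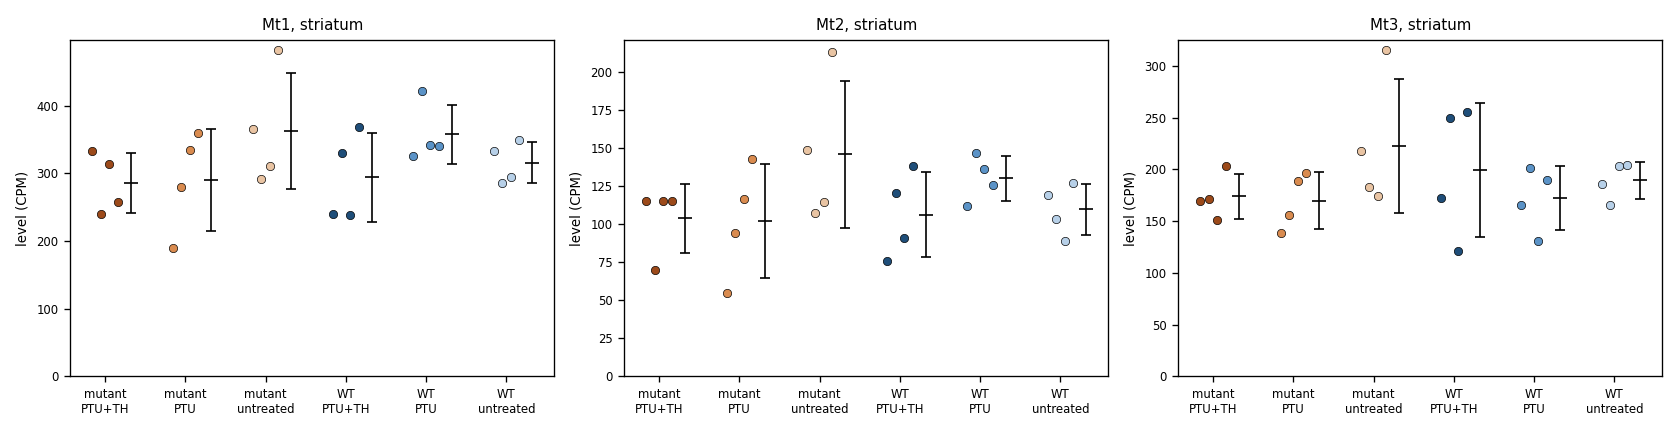
Level of Mt1, Mt2 and Mt3 (3 panels) in every striatum library, in CPM (y axis), by genotype and treatment (x axis), with the mean and SD as a bar beside the points. The groups overlap for each gene, and untreated mutant replicate 4 is the highest point in each panel, at 483, 213 and 315 CPM.

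Mtf1, Slc30a1 and Slc39a10 differed little between striatum groups, and none passed the test. Mtf1 ranged from 38.7 to 53.6 CPM, with group means of 45.8 to 50.6 CPM. Slc30a1 ranged from 33.8 to 58.8 CPM and Slc39a10 from 115 to 189 CPM. For Mtf1 no log2 change between groups exceeded 0.13 in size, and the 95% interval of the largest, mutant PTU+TH against untreated, ran from -0.34 to 0.09. Those of Slc39a10 reached -0.17 ± 0.132 for mutant against WT PTU+TH striata (edgeR's quasi-likelihood test, adjusted p = 1).

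Slc30a3, the vesicular zinc transporter, varied most between libraries of 1 group. It had 1.96, 10.6, 5.51 and 8.77 CPM in mutant PTU+TH striata, 8.37, 3.46, 12.2 and 10.3 CPM in mutant PTU striata, and 3.54, 2.27, 3.91 and 4.75 CPM in untreated mutant striata. It had 3.57, 0.492, 4.75 and 12.0 CPM in WT PTU+TH striata, 1.38, 6.64, 2.40 and 2.39 CPM in WT PTU striata, and 0.900, 14.5, 3.02 and 5.72 CPM in untreated WT striata. The highest and nearly the lowest value came from the same group, untreated WT. Its level rose and fell with the summed level of 10 cortical excitatory neuron markers, which ran from 196 to 583 CPM and none of which was at 0. On the log2 scale Pearson's r was 0.912 and Spearman's rho 0.929 over 24 libraries of 1 tissue, in which both values come from the same reads, and r was 0.93 without the 2 libraries farthest from the median marker sum. Taken as deviations from group means, r was 0.941. By group the marker sum was 255 to 464 CPM in mutant PTU striata and 196 to 393 CPM in WT PTU striata, where the Slc30a3 change was 1.38 ± 0.688 (edgeR's quasi-likelihood test, adjusted p = 1). With the marker sum as a covariate this difference was -0.03, and the genotype difference in PTU response was 0.33 in place of 2.11. The value of 2.11 was not called and ran from 1.20 to 2.77 with each of 16 libraries left out in turn. Neither difference was called without the covariate. The covariate comes from the same reads as Slc30a3, so this fit cannot tell what part cortical neurons had, which was not tested.

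**Figure D5:**
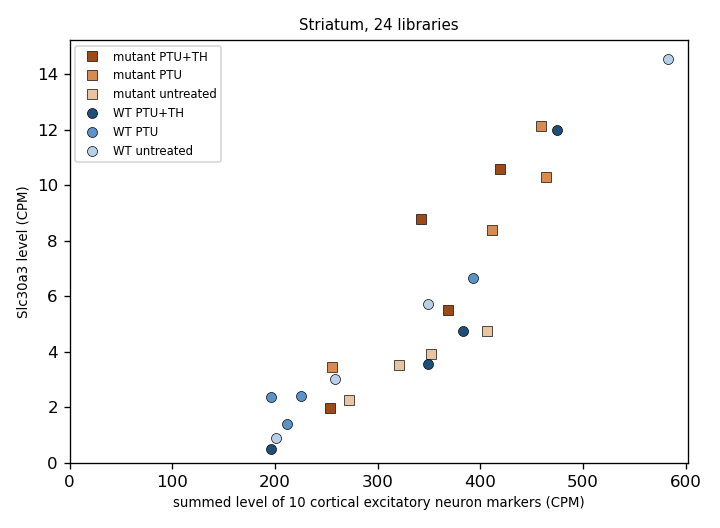
Level of Slc30a3 (y axis, CPM) against the summed level of 10 cortical excitatory neuron markers (x axis, CPM) in 24 striatum libraries, with 1 point per library (squares mutant, circles WT, shades by treatment). Slc30a3 runs from 0.492 to 14.5 CPM along with the marker sum, and libraries of both genotypes lie along the same course.

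Genes whose log2 CPM was most like a member's over the libraries of a tissue were listed by Pearson correlation, as a description. In striatum (24 libraries) the nearest gene to Mt1 was Mt2 and the reverse (r = 0.942), followed for both by Wbp2 (0.834 and 0.861). In heart (22 libraries) the nearest to Mt2 were Atxn10 (0.86), Cd200 (0.797) and Mt1 (0.783), and the nearest to Mt1 were Hsbp1, Rgcc and Hpcal1 (0.868 to 0.88). Slc30a3 in striatum was most like Slc17a7 (0.95), the vesicular glutamate transporter of cortical neurons, Neurod2 (0.944) and Vxn (0.932). Mt3 in striatum was most like Elob, Park7 and Bola2 (0.914 to 0.929). Among the genes most like Mtf1 were Rock2 (0.937) and Qser1 (0.904) in heart, and Kansl1, Foxo3 and Srr in striatum (0.805 to 0.822). Slc39a10 was most like Pcgf3, Btbd7 and Trim33 in heart (0.924 to 0.927), and Jazf1 and Kcnv1 in striatum (0.833 for both). Slc30a1 was most like Tbl1xr1, Trp53inp1 and Purb in heart (0.795 to 0.888), and Fam174a, Kcnd2 and Gabra4 in striatum (0.938 to 0.949). In heart Mtf1 and Slc39a10 moved together (0.701), and their correlations with Mt2 were -0.337 and 0.049.

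The rest of the zinc transporter family passed no test where Mt2 moved in WT hearts. Of 23 other genes of zinc handling, nearly all SLC30 and SLC39 transporters, 16 were tested in heart and 18 in striatum. With PTU against untreated WT hearts 0 of 16 were called, against 4.9% of all genes. Their median log2 change was 0.12 beside 0.01 over all genes. With PTU+TH against PTU 0 of 16 were called, against 11.4% of all genes, with a median of 0.03 beside -0.03. Mutant PTU+TH against untreated hearts called 22% of 14156 genes, with 1515 higher and 1603 lower. There 4 of these 16 zinc genes were called higher, with a median of 0.30 beside -0.02. These were Slc30a9 (0.55 ± 0.147), Slc30a5 (0.48 ± 0.158) and Slc30a4 (0.73 ± 0.257) of the SLC30 family and the importer Slc39a14 (0.75 ± 0.201), by edgeR's quasi-likelihood test (adjusted p = 0.0112 to 0.045). In striatum 0 of 18 were called in any of the 11 comparisons, which called at most 0.459% of all genes. Between untreated WT tissues 5 of 18 were higher and 10 lower in heart. That comparison called 79.9% of 17346 genes, with 6493 higher and 7359 lower. Slc39a14 was 1.57 ± 0.15 higher in heart (adjusted p = 1.1e-12) and Slc39a3 fell by 1.28 ± 0.130 in heart relative to striatum (adjusted p = 5.69e-12). Slc39a12 had 0 to 0.252 CPM over all hearts and 15.5 to 36.4 CPM over all striata.

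Lists of genes that answer to known inducers of metallothioneins held a few called genes beside Mt2 in WT hearts. Of 19 tested copper, redox and metal response genes, 1 was called higher and 1 lower with PTU against untreated, and 2 higher and 2 lower with PTU+TH against PTU, in comparisons that called 4.9% and 11.4% of all genes. Nqo1, a redox enzyme, changed by 1.09 ± 0.199 with PTU (edgeR's quasi-likelihood test, adjusted p = 0.00137) and by -1.64 ± 0.202 with PTU+TH against PTU (adjusted p = 5.87e-06), the same signs as Mt2. Steap3, a metal reductase, changed by -0.62 ± 0.136 and 0.87 ± 0.136 in these comparisons. Slc31a2, a copper transporter, was lower with PTU+TH than with PTU (-0.75 ± 0.161, adjusted p = 0.00284). Of 20 glucocorticoid-responsive genes, 3 were called higher and 1 lower with PTU in WT hearts, against 4.9% of all genes, among them Sult1a1 (0.97 ± 0.260), Hif3a (1.96 ± 0.541) and Klf9 (-1.20 ± 0.338). Of 16 tested interleukin-6 and acute phase genes, Bcl3 was the 1 called with PTU (-1.51 ± 0.314), a share near that of all genes. Of 12 tested genes known to follow thyroid hormone, 1 was called higher and 7 lower with PTU in WT hearts, against 4.9% of all genes. Their median was -1.11, and Klf9 stands in this list too.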

How the data were processed

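Total RNA from 46 libraries (22 heart, 24 striatum) had been made into libraries with CORALL V2 (Lexogen), per the labels' protocols. The deposited values are raw counts per gene, which the authors made with Bowtie2, HTSeq and the build GRCm39, per the submitters' processing notes; annotation release and strand setting were not stated. The 5 lines per file that name no gene were left out of totals. Each tissue was fitted alone with edgeR 4.0.16 in R 4.3.3 (TMM scaling, filterByExpr with a minimum count of 10, quasi-likelihood F test, Benjamini-Hochberg adjustment over all genes, called at an adjusted p of 0.05). A joint fit of 46 libraries served the tissue comparison. Values after ± are SD for levels and standard errors for log2 changes. The fits were tested on simulated data. Exon lengths and opposite-strand genes came from GENCODE M21 (GRCm38), used for lengths and names only. Alternatives were RLE and upper quartile scaling, no filter, a replicate block, the share of no-gene reads or the cortical marker sum as covariate, DESeq2 1.42.0, fits of only the compared groups, another length and each library left out. Members and gene lists were chosen with earlier results of these data known. Named genes were the members, the 3 most alike per member and tissue, up to 4 called zinc genes and up to 3 called genes of every other list per comparison, by adjusted p; marker genes at 0 were named besides, and 1 gene is not reported here.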

Additional observations from a re-analysis of the deposited data

Results flagged for a closer look

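Of 70 sets of 4 libraries, 1 for each member and group, 5 in which no library reached 10 reads were left out. Among the other 65 the highest or lowest library stood far apart from the others in 5, where chance flags about 1 in 20. In striatum Mt1 was at 422 CPM in WT PTU replicate 2, with the other 3 libraries at 325 to 341 CPM. Slc39a10 was at 187 CPM in the same library, against 137 to 144 CPM in the others of its group. Mt2 was at 70.0 CPM in mutant PTU+TH striatum replicate 2, with the others at 115 to 116 CPM. Mtf1 was at 48.1 CPM in WT PTU striatum replicate 4, with the others at 51.1 to 51.8 CPM. In heart, Slc30a1 was at 20.2 CPM in WT PTU+TH replicate 4, with the others at 17.4 to 17.6 CPM.

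The PTU response of Mt2 in heart differed between mutant and WT by a log2 change of -1.90, which edgeR's quasi-likelihood test of the difference called (adjusted p = 0.0323). On the log2 scale, PTU hearts differed from untreated ones by -0.29 in mutant mice and by 1.61 in WT mice.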

How the results depend on the processing

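The rise of Mt2 with PTU in WT hearts (log2 change 1.60 to 1.66) and its fall with PTU+TH against PTU (-1.45 to -1.42) kept their calls in 7 of 7 other settings. No called change reversed its direction. Among 2421 log2 changes under other settings, libraries left out included, 156 had the other sign, in 61 of 150 results, and 0 of these 156 were called in either fit. The Slc30a3 difference between mutant and WT PTU striata, for 1, was -0.03 in place of 1.38 with the cortical marker sum as covariate. Counts of called members moved as follows, by edgeR's quasi-likelihood test unless another is named. For WT PTU+TH against PTU hearts the count was 2 in place of 1 without the filter, with the replicate block, with DESeq2 and with only the compared groups, since Mt1 joined Mt2. For mutant PTU+TH against untreated hearts it was 0 in place of 1 with upper quartile scaling, the replicate block and the no-gene read share, since Mtf1 was lost. Without the filter Mtf1 was lost too (0.60, adjusted p = 0.105) but Slc39a10 was called (0.86, adjusted p = 0.0149), so the count was 1 with another gene. The genotype difference in PTU response went to 0 with the no-gene read share and with only the compared groups, and the difference between PTU hearts to 0 with only the compared groups. It was 1 in place of 0 without the filter for mutant PTU against untreated hearts (Slc39a10) and for the genotype difference in TH response (Mt2), and 1 with only the compared groups for PTU+TH hearts (Slc30a1). With each library left out in turn, the counts ran from 0 to 1 for the genotype difference in PTU response, for PTU hearts between genotypes, for mutant PTU+TH against untreated hearts and for mutant PTU against untreated hearts, and from 1 to 2 for WT PTU+TH against PTU hearts. The cause was not tested.

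With the replicate block Mt2 changed by 1.63 with PTU in WT hearts, and its genotype difference in PTU response was -1.91 (adjusted p = 0.0404). Mt1 then passed for WT PTU+TH against PTU (adjusted p = 0.0366) and Mtf1 did not for mutant PTU+TH against untreated hearts (0.0507). The shared number pairs nothing in the labels. Deviations of same-numbered libraries from group means had a median correlation of 0.08 over 51 pairs in heart (-0.249 to 0.598). In striatum the median was 0.07 over 60 pairs (-0.686 to 0.455). Of these pairs 23 in heart and 25 in striatum were above 0.1. Differently numbered libraries had medians of -0.016 in heart and -0.034 in striatum. Depth limited Mt3 and Slc30a3 in heart, where moderate changes were not detectable, and mutant untreated replicate 2 gave 12 reads of Slc39a10. The annotated opposite-strand gene Gm45774 overlaps 432 of the 588 merged exon bases of Mt2 and had 22 reads in hearts, against 4349 of Mt2. Without the strand setting it is not known whether reads in this overlap were counted for Mt2. This limit applies to the Mt2 levels, also per kilobase, and to the ratios of Mt1 to Mt2.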
